A study of Homo sapiens with 18 samples.

Results

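The genes described here encode the actin cytoskeleton and the focal adhesions that anchor it to the extracellular matrix. The cells were SH-SY5Y, an established line from a human neuroblastoma, either exposed to sarin or left untreated. Sarin belongs to the organophosphate nerve agents, which inactivate acetylcholinesterase. The 39 genes were named with earlier results of these data known, so their shares set against all genes are descriptions, and every probe set annotated to exactly 1 of them was taken, which gave 80 probe sets of 36 genes out of 19065 probe sets of 11963 genes in the series. Of these, 54 probe sets of 30 genes lay above the level filter and were tested, out of 11439 probe sets of 8054 genes. The dose was 5 ppm, exposure lasted 3, 24 or 48 h, untreated control cells were taken at the same times, and each of the 6 groups has 3 arrays, 18 in all. The labels name 6 flasks per group beside the 3 arrays and do not say how flasks were shared out, so p-values reflect array-to-array spread alone, and that spread may be technical. SH-SY5Y is a subclone of a single tumour-derived line, and the labels describe it as neuronal, from brain.

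Integrins are paired membrane receptors that bind matrix outside the cell and talin inside it. Talin, vinculin, paxillin, the integrin-linked kinase and parvin form the plaque of a focal adhesion, and zyxin and VASP join where the plaque meets actin bundles under tension. Along the filaments, alpha-actinin and filamin crosslink, and tropomyosins, calponins, transgelins and caldesmon bind the sides. Serum response factor, SRF, acts with actin-sensing cofactors on many of these genes through a DNA element called the CArG box. In neuroblastoma lines, neuron-like cells with few adhesions and flat, substrate-adherent cells with many stress fibres can exist side by side.

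As SRF is itself among the genes, the promoter windows of RefSeq (GRCh38.p14) were searched for the CArG box, which reads alike on both strands. These windows run from 250 bases before to 50 bases after each annotated start. Of the 39 genes, 33 had at least 1 window, 60 windows in all, and 8 of those 33 genes had a box (10 of 60 windows, 16.7%). CCN1, MYL9, ACTB, ITGB3, TAGLN and PARVA had no window and were not searched. Among all windows of the table, 454 of 35116 (1.29%) held one, and 438 of 27305 genes (1.6%). The genes with a box were SRF, CNN2, TPM4, FHL2, LPP, ACTN1, ACTG1 and FLNA. The 250 bases before the start are shown for SRF, which has 2 boxes, for the calponin gene CNN2 and the tropomyosin gene TPM4, each with 1, and for the zyxin gene ZYX, which has none and carries the clearest difference at 24 h. Each is written 5′ to 3′ on the plus strand with boxes in capitals.
SRF: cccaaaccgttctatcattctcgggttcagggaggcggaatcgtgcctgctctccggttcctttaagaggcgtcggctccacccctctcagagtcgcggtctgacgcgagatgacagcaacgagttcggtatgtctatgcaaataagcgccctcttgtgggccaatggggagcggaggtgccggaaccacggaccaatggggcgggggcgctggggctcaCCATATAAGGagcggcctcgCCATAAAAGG
CNN2: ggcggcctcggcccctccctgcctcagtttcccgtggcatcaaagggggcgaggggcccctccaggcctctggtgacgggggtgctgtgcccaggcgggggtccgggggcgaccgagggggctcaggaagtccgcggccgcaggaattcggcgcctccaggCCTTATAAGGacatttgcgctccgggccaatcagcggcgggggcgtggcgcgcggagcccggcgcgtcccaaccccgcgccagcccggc
TPM4: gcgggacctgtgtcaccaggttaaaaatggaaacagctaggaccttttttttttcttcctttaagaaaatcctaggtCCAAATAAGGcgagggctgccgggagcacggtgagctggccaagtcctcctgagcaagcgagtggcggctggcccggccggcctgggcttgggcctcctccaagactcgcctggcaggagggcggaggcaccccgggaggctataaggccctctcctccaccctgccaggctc
ZYX: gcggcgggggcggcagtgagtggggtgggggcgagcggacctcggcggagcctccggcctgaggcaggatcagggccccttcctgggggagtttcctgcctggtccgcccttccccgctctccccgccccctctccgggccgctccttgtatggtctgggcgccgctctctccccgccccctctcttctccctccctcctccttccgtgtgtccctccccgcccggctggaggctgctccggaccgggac
The stretches lie at chr6:43171019-43171268 for SRF, chr19:1026358-1026607 for CNN2, chr19:16067288-16067537 for TPM4 and chr7:143381095-143381344 for ZYX. Counted so that the last base before the start is position -1, the boxes begin at -30 and -10 in SRF, -89 in CNN2 and -173 in TPM4. The TPM4 window is 1 of 3 for that gene, and the SRF window 1 of 2. The other boxes were CCATATATGG at -94 of ACTG1, CCAAAAATGG at -171 of ACTN1, CCAATTAAGG at -94 of FLNA, CCATATTTGG at -183 of LPP, and CCTTATATGG at -59 and CCTTAAAAGG at -101 or -85 of FHL2, depending on the start used. A box is a match of letters and does not show that SRF binds there, and a window without a box says only that these letters are not in it.

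The deposited signals were on a common scale, with a trimmed mean of 800.1 to 800.3 on all 18 arrays. The 3 sarin arrays of 48 h stood apart: across all 22283 probe sets, controls included, they correlated with the other arrays at r of 0.665 to 0.758, against 0.909 to 0.965 among those others. The 3′ over 5′ signal ratio of GAPDH, a measure of RNA integrity, was 2.15 to 2.301 on them against 0.7033 to 0.9552 in controls of that time. At 24 h it was 1.046 to 1.167 with sarin and 0.8106 to 0.9412 in controls, and at 3 h the ranges overlapped. Of 12 markers of noradrenergic neuroblastoma cells, 11 had a probe set and 9 were above background on all 18 arrays, while TH, the tyrosine hydroxylase gene, was above it on 0 arrays. Of 12 markers of substrate-adherent cells 8 were above background on all 18 arrays, and of 8 glial markers 6 had a probe set, 1 was above background on all arrays and S100B on 0.

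Most plaque, integrin and filament genes had a probe set above the level filter, among them all 10 plaque genes and all 4 integrins. Of the 54 tested probe sets 34 were above background on all 18 arrays, a count that the filter on mean level favours. None of the 26 untested member probe sets was. Among the integrin leads, ITGB1 was above background on 18 arrays, ITGB3 and ITGAV on 17 and ITGA5 on 16. A probe set counts as above background on an array when it exceeds the 90th percentile of 27 unspiked bacterial control probe sets there. The filamin genes FLNA and FLNC had no probe set of their own in the annotation used and were not analysed here, and ACTG1, cytoplasmic gamma-actin, was measured only by 8 probe sets shared with ACTB. Genes typical of smooth muscle and matrix-rich cells were faint. TPM2 (beta-tropomyosin), MYL9 (a myosin regulatory light chain) and CCN2 (a matricellular protein) were above background by their brightest probe set on 0 of 18 arrays, MSN (moesin, a membrane linker) on 2, CNN1 (basic calponin) on 3 and TAGLN (transgelin, SM22-alpha) on 9. These 6 genes lay below the filter. The filter passed at a mean log2 signal of 8.106, with a probe set of PDLIM7 just inside at 8.14 and one of CALD1 just outside at 8.08.

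After 3 h of sarin none of the 54 probe sets had an adjusted p under 0.05 in limma, nor did any of all probe sets (0% called higher and 0% lower). At an unadjusted p under 0.05 there were 9 of the 54 and 1141 of the 11439. The median log2 change of the 30 genes, each by its brightest or lead probe set, was -0.15, against -0.01 over all 8054 genes. The groups did not overlap for 8 member probe sets that were higher with sarin and 3 that were lower, where 7.86% and 6.27% of all tested probe sets did so. Values below are signals in the arbitrary units of the arrays, and log2 changes are of signal plus 16, with their standard error.

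LPP, a zyxin relative found at adhesions and cell contacts, had the lowest value at 3 h. Its lead probe set read 663.7, 486.4 and 462.2 in sarin cells, against 1098.1, 862.1 and 1105.1 in control cells. All 3 sarin arrays were below all 3 control arrays, and the log2 change was -0.92 ± 0.21 with an adjusted p of 0.277 in limma. SRF was at the other end, with 387.8, 625.8 and 603.6 in sarin cells and 310.3, 309.0 and 293.8 in control cells. These arrays did not overlap either, and the log2 change of 0.76 ± 0.36 had an adjusted p of 0.494. CCN1, a matricellular protein gene that responds to SRF and to YAP, was at 0.48 ± 0.24 (adjusted p = 0.537), with 792.2, 679.1 and 721.1 against 558.7, 578.4 and 431.5.

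The abundant genes of the filament itself were uneven among the controls of 3 h. This was not particular to them, as the 5′ control probe set of GAPDH ran from 31007.4 to 98615.2 in the same controls. ACTB, beta-actin, had 38878.7, 49976.7 and 39343.1 in sarin cells and 50657.4, 45264.9 and 122959.2 in control cells, so that its log2 change of -0.63 ± 0.28 rested largely on control replicate 3. Without that array it was -0.17. CFL1 (cofilin, which severs filaments) and PFN1 (profilin, which feeds monomers to growing ends) had the same bright array, at 100301 for CFL1 and 30586.7 for PFN1. Neither differed from control by the test at 3 h (adjusted p = 0.627 for CFL1 and 0.632 for PFN1).

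After 24 h of sarin, genes of the focal adhesion plaque, an integrin and actin side binders fell, and no member was called higher. By lead probe set, 5 of 30 genes were called lower and 0 higher: ZYX, VCL, ITGB3, TAGLN2 and CNN2. Among all 8054 genes 321 were called lower and 274 higher. By probe set the count was 8 of 54 lower and 0 higher, where 3.74% of all tested probe sets were called lower and 3.42% higher. The median log2 change of the 30 genes was -0.40, against -0.09 over all genes. Of the 30 genes 22 were below 0, and of all 8054 genes 4695 were. Groups did not overlap for 18 member probe sets on the lower side and 1 on the higher side, where 23.3% and 15.6% of all tested probe sets did so. As these are bulk samples, fewer cells of a type and less RNA per cell cannot be told apart.

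Zyxin, a LIM-domain protein that moves to strained actin fibres and recruits VASP, had the smallest p. Its lead probe set read 925.8, 897.5 and 892.4 in sarin cells, against 1903, 2655.1 and 2197.5 in control cells. The 3 sarin arrays lay within a narrow band at less than the lowest control. The mean was 905 ± 18 against 2250 ± 379 (SD, n = 3 each), 2.44-fold lower, with a log2 change of -1.29 ± 0.15 and an adjusted p of 6.35e-05 in limma. The second probe set read 908.6, 956.9 and 1136.7 in sarin cells and 1971.4, 2224.7 and 2131.5 in control cells, 2.1-fold lower (adjusted p = 0.00234). Both probe sets of the gene therefore gave the same direction and a like size. The lead probe set is of a kind the maker marks as able to match other transcripts. The second carries a different mark, and neither was checked against other transcripts.

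**Figure D1:**
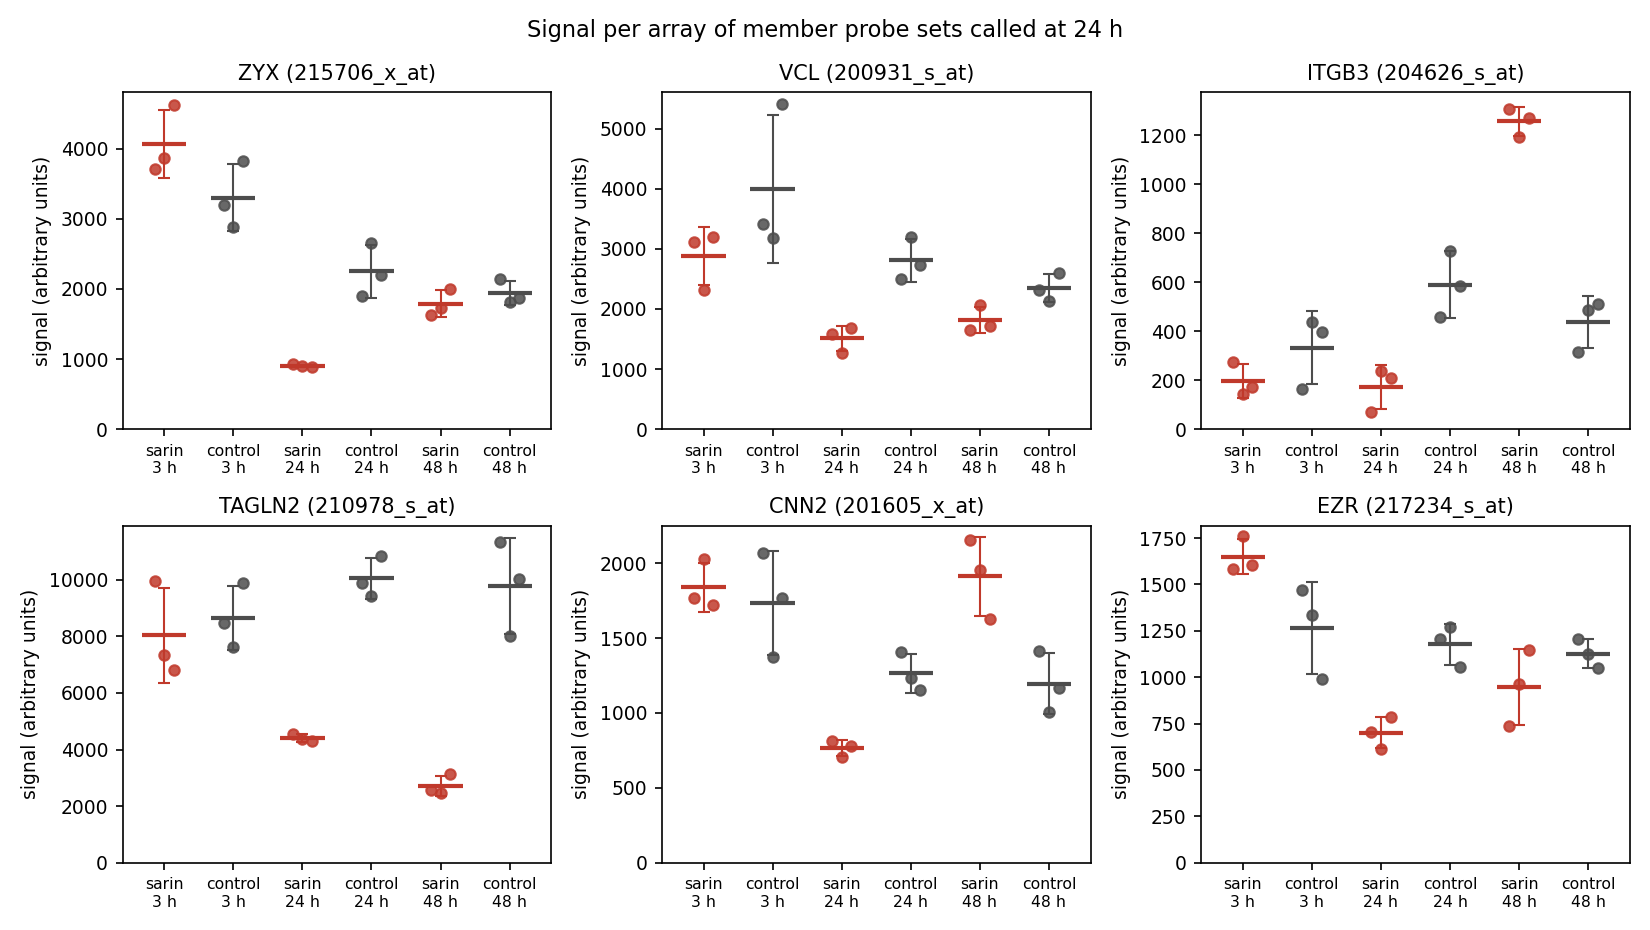
Signal per array (arbitrary units, vertical axis from 0) of 6 member probe sets called lower at 24 h, for sarin (red) and control (grey) cells at 3, 24 and 48 h. Points are arrays, horizontal bars the mean of 3 arrays and whiskers the SD. At 24 h the 3 sarin points lie below the 3 control points in every panel, and for ZYX all 3 are between 892.4 and 925.8.

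Vinculin, VCL, which links talin to actin and strengthens the adhesion, read 1578.7, 1271.8 and 1681.2 in sarin cells and 2492.1, 3203.5 and 2725.4 in control cells. The groups were well apart, and the log2 change was -0.89 ± 0.19 (1.85-fold lower, adjusted p = 0.00903). Every other plaque gene but TLN1 (talin, 0.33 ± 0.42) also had a value below 0 at 24 h, and none of those 7 passed. PDLIM7, a PDZ-LIM adaptor of actin bundles, was nearest to the threshold among them at -0.79 ± 0.29 (adjusted p = 0.0982), with 538.2, 548.9 and 423.6 in sarin cells against 825.4, 1030.8 and 794.2 in control cells. Its other tested probe sets were at -0.78 and -0.56. PARVA (alpha-parvin, which binds the integrin-linked kinase) was at -0.85 ± 0.34, VASP (which speeds filament growth) at -0.64 ± 0.31, LPP at -0.50 ± 0.21, FHL2 (a LIM-only cofactor) at -0.48 ± 0.26, PXN (paxillin) at -0.44 ± 0.20 and ILK (the integrin-linked kinase) at -0.40 ± 0.20. The median of the 10 plaque genes was -0.57, with 9 of 10 below 0 and 2 called, where 4695 of all 8054 genes were below 0.

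Among the integrins, ITGB3, the beta-3 chain that pairs with alpha-V to bind vitronectin and fibronectin, was called. Its lead probe set read 69.9, 238.6 and 209.9 in sarin cells and 458.3, 728.5 and 584.3 in control cells. The first sarin array was not above background, so the log2 change of -1.81 ± 0.40 (adjusted p = 0.0116) has a low side near the limit of measurement. The other tested probe set of the gene was at -0.29 ± 0.41 (adjusted p = 0.705), and 5 further ones lay below the filter. ITGB1, the beta-1 chain shared by most matrix receptors, was at -0.26 ± 0.15 with 7089.8, 8475.9 and 6938.1 in sarin cells against 9738.4, 9257.2 and 7895.9 in control cells, which overlap. ITGAV (alpha-V) at -0.23 ± 0.27 and ITGA5 (the alpha-5 chain of the fibronectin receptor) at -0.91 ± 0.55 did not pass either.

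Of the 6 side binders tested, 2 were called lower, with a median of -0.30. TAGLN2, transgelin-2, which stabilises filaments in non-muscle cells, read 4549.6, 4373.4 and 4294 in sarin cells and 9892.2, 9420.1 and 10830.7 in control cells by the second of its probe sets. That is 2.27-fold lower with no overlap (log2 change -1.18 ± 0.16, adjusted p = 0.000273). Its lead probe set was more scattered, at 5878.7, 5590.9 and 3734.4 against 10172, 8741.3 and 9223.8 (-0.91 ± 0.24, adjusted p = 0.0281). CNN2, the non-muscle calponin that dampens myosin sliding, read 812.2, 705.2 and 780.5 in sarin cells and 1407.7, 1229.8 and 1152.8 in control cells. Its log2 change was -0.71 ± 0.17 (1.63-fold lower, adjusted p = 0.0202), from a single probe set of the cross-matching kind. TPM4, a non-muscle tropomyosin, had 855.8, 827.3 and 892.5 in sarin cells against 1397.8, 1300.3 and 1023.7 in control cells. The groups did not overlap, and the log2 change of -0.51 ± 0.19 missed the threshold (adjusted p = 0.0999).

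Other parts of the filament gave small values at 24 h. TPM1, the main tropomyosin gene, was at 0.37 ± 0.20 by its lead probe set and between -0.01 and 0.24 by the other 3. CNN3, acidic calponin, was at 0.13 with a 95% interval of -0.21 to 0.46, and CALD1, caldesmon, at -0.09 ± 0.19. ACTB was at -0.25, with an interval of -0.82 to 0.33, and the 8 probe sets shared by ACTB and ACTG1 had a median of -0.03. ACTN1, alpha-actinin-1, was at 0.22 with an interval of -0.10 to 0.53, and MYL6, the essential myosin light chain, at 0.16 with an interval of -0.19 to 0.52. ACTN4 (alpha-actinin-4, 0.08), CFL1 (0.12), PFN1 (-0.28) and MYH9 (non-muscle myosin heavy chain IIA, -0.40) also did not pass. None of these intervals shows that sarin left the gene unaltered, and those of ACTB and MYH9 are wide.

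Of the membrane linkers, EZR, ezrin, which ties actin to the cell cortex, had 4 tested probe sets. One of them read 705.2, 614.2 and 783.5 in sarin cells and 1204.5, 1272.3 and 1056.5 in control cells (-0.74 ± 0.18, adjusted p = 0.0217). The lead probe set was at -0.21 ± 0.21 (adjusted p = 0.581), with the remaining ones at -0.60 and -0.44. All 4 were below 0 and 1 passed, which is the ezrin probe set meant where a call at 24 h is given. SRF was at 0.47 ± 0.36, above 0 as at 3 h, with 394.9, 446 and 468.2 in sarin cells and 352.5, 396.5 and 210.6 in control cells, which overlap. Of the genes with a CArG box in the window, CNN2 was called, while the other measured ones did not pass at 24 h.

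**Figure D2:**
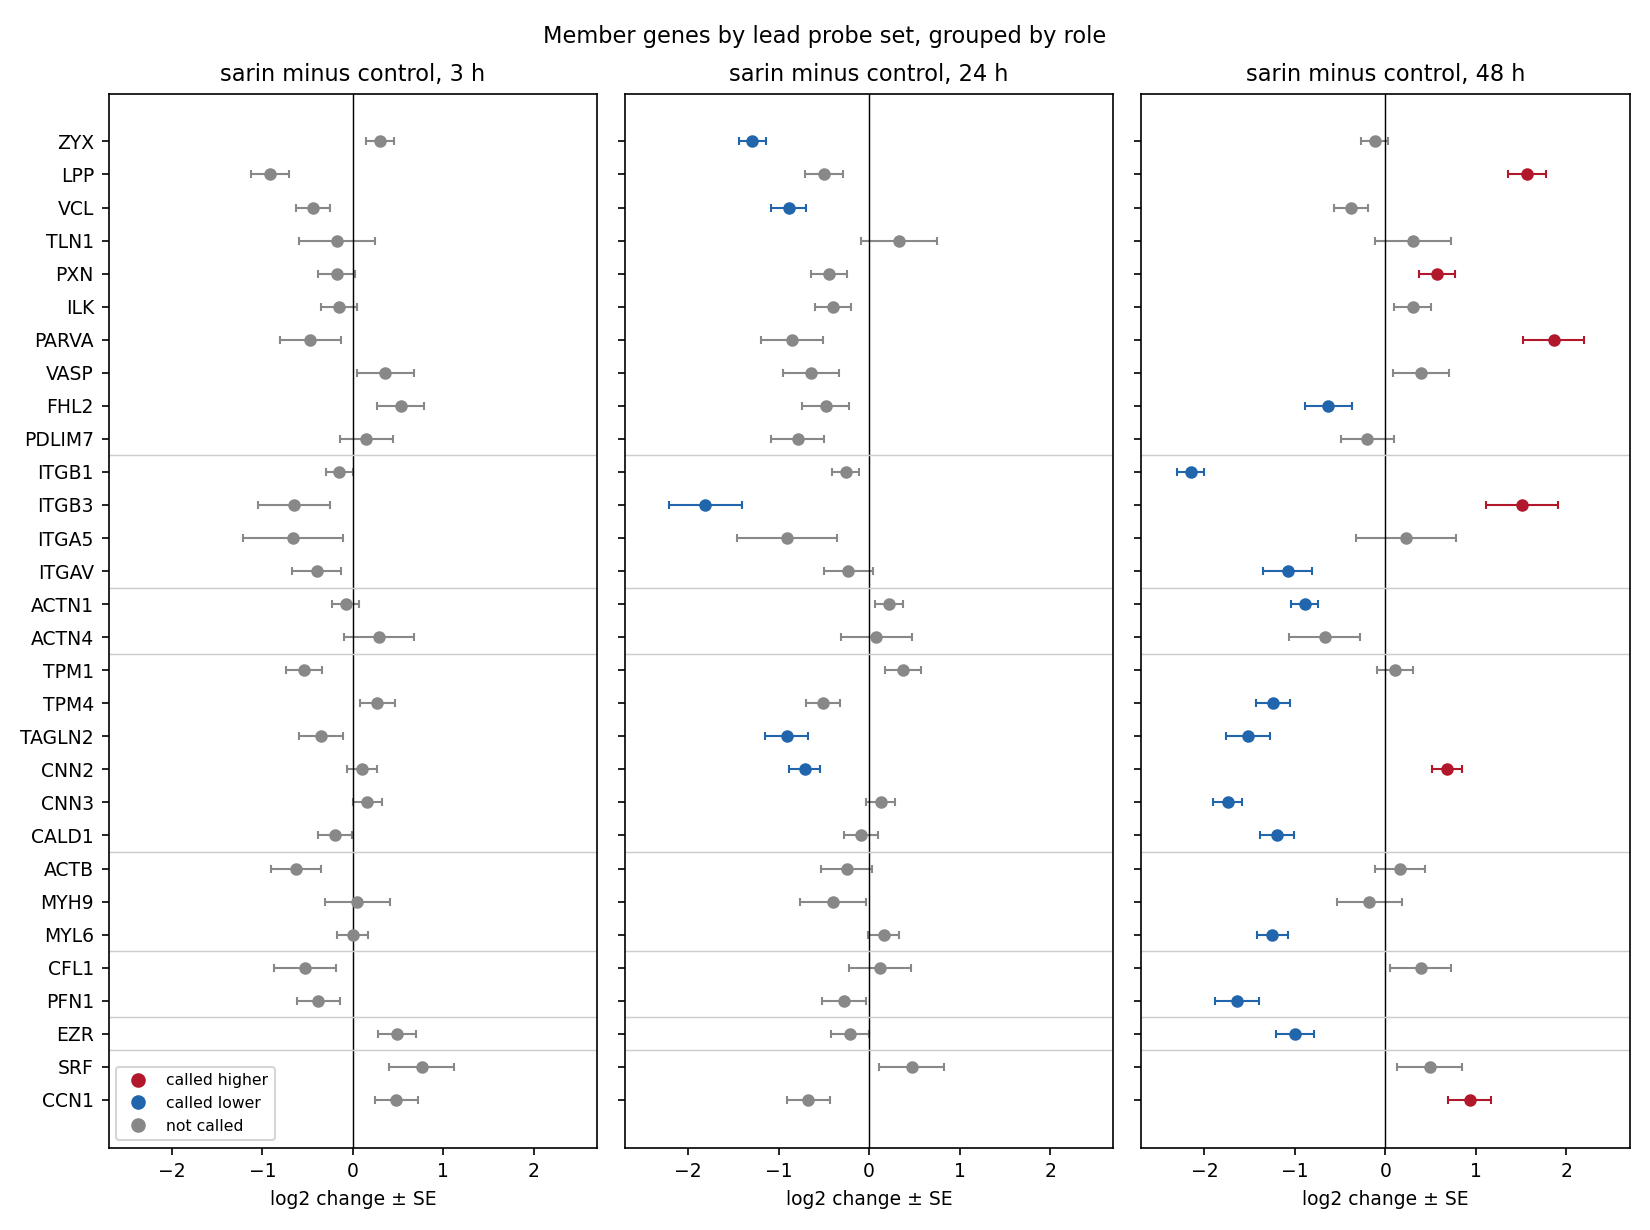
Log2 change of sarin minus control with its standard error (horizontal axis) for the 30 tested member genes by lead probe set, ordered by role from plaque (top) to SRF and CCN1 (bottom), at 3, 24 and 48 h. Colour marks genes called higher or lower at an adjusted p under 0.05: 0 at 3 h, 5 lower at 24 h, and 6 higher and 11 lower at 48 h.

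The calls at 24 h depended on single arrays to different degrees. Both ZYX probe sets and the second one of TAGLN2 passed without any 1 of the 6 arrays. VCL lost its call without sarin replicate 2 (adjusted p = 0.0629) or control replicate 2 (0.0614), ITGB3 without sarin replicate 1 (0.0734) or control replicate 2 (0.07), and CNN2 without sarin replicate 1 (0.0548) or 2 (0.0954) or control replicate 1 (0.0698) or 2 (0.0675). The lead of TAGLN2 lost it without any array except sarin replicate 1 (up to 0.115), and EZR without replicate 1 or 2 of either group (up to 0.11). Scaling to the hybridisation spike-ins, added after seeing the data, ended all 8 calls (adjusted p from 0.0759 for the lead of ZYX to 0.483 for CNN2) while the log2 changes stayed close, at -1.25 for the lead of ZYX, -0.85 for VCL, -1.77 for ITGB3 and -0.67 for CNN2. Quantile normalization ended those of CNN2 (0.0674) and EZR (0.0707). Centring arrays on their median ended those of CNN2 (0.116), EZR (0.114) and the lead of TAGLN2 (0.0799), and it brought TPM1 past the threshold as higher (0.64, adjusted p = 0.0309), which left 3 genes lower and 1 higher. Several array measures moved with the groups at 24 h, among them the GAPDH ratio given above. The median signal was 314.9 to 345.3 with sarin against 397 to 413.9 in controls. The ACTB 3′ over 5′ ratio was 1.559 to 1.635 against 1.462 to 1.504, and the background level 111.7 to 127.2 against 134.7 to 182.9. The part of these measures in the values of 24 h was not tested.

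Against the 6 controls of 3 and 48 h instead of those of 24 h, all 8 probe sets were again lower and passed. ZYX was then at -1.46 and -0.97, VCL at -1, TAGLN2 at -0.95 and -1.05, CNN2 at -0.88, ITGB3 at -1.15 and EZR at -0.75. TPM4 (-1.06), CCN1 (-0.89), ITGAV (-0.74) and CNN3 (-0.44) also passed as lower in that comparison, and ACTN1 (0.41) as higher. Of 11 tested markers of substrate-adherent cells, 2 were called lower at 24 h, LGALS1 (-1.07) and S100A10 (-1.17), and 0 higher, with a median of -0.38 and FN1 (0.25), COL3A1 (0.19) and SNAI2 (0.08) above 0. Their summed signal was 40019 to 40908 with sarin and 59372 to 62316 in controls, and most of that gap was LGALS1, at 11400 against 23900. Their part in the changes of ZYX, VCL, ITGB3, TAGLN2 and CNN2 was not tested. The summed signal of the noradrenergic markers was higher with sarin, at 106882 to 108295 against 86146 to 96971. The genes of that list were mixed, with 2 of 10 called higher and 2 lower, and log2 changes from -1.66 to 0.77 with a median of 0.11.

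The sarin difference itself was compared between 24 and 3 h as a difference of differences. Of the 54 probe sets 4 were called lower and 0 higher, where 0.455% of all tested probe sets were lower and 0.262% higher. ZYX had the largest such values, -1.59 ± 0.21 by the lead (adjusted p = 0.00122) and -1.61 ± 0.26 by the second probe set (0.0072). At 3 h its lead probe set had read 3713.9, 3872 and 4621.9 in sarin cells and 3203.3, 2884.8 and 3818.5 in control cells, a log2 change of 0.30 ± 0.15 that did not pass. The ZYX arrays of the groups overlapped at 3 h and were apart at 24 h. The second probe set of TAGLN2 (-1.07 ± 0.23, adjusted p = 0.0348) and the EZR probe set called at 24 h (-1.14 ± 0.26, 0.0484) passed as well, but each lost its call for 10 of the 12 arrays left out 1 at a time (adjusted p up to 0.0967 for TAGLN2 and 0.154 for EZR). VCL (-0.45 ± 0.27) and ITGB3 (-1.15 ± 0.57) did not, so their differences are not shown to differ between the times. The 24 h and 24 minus 3 h comparisons share the arrays of 24 h.

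Untreated cells also differed over time in members, ZYX among them. In the control cells of 24 h minus those of 3 h, 4 of 54 probe sets were lower and 0 higher, where 2.04% of all tested probe sets were lower and 3.23% higher. They were the leads of ZYX (-0.55 ± 0.15, adjusted p = 0.0391) and TPM4 (-0.69 ± 0.19, 0.0372) and a pair of probe sets of TPM1 (-0.71 and -0.87). In untreated cells ZYX averaged 2250 ± 379 at 24 h and 3300 ± 475 at 3 h, and TPM4 averaged 1240 ± 194 at 24 h and 2020 ± 390 at 3 h. With quantile normalization or with only those arrays neither gene was called, and without any 1 array at most 1 was. The ACTB 3′ over 5′ ratio of these controls was 1.462 to 1.504 at 24 h and 0.7903 to 1.137 at 3 h, and its part in these values was not tested. The values for ZYX in sarin cells were 905 ± 18 at 24 h and 4070 ± 485 at 3 h. Between 48 and 24 h, a probe set of LPP that is not its lead was the only member called, at -1.23 (adjusted p = 0.0483), where 0.227% of all probe sets were lower and 0.201% higher. That call was lost in most alternatives, among them a pseudocount of 1, no filter, quantile normalization and 5 of the 6 fits with 1 array left out.

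The wider network was read from 4 lists of genes that are not members, each gene by its lead probe set. Among focal adhesion and integrin partners 3 of 24 tested genes fell at 24 h and 0 rose, with a median of -0.33 against -0.09 over all genes. FERMT2, kindlin-2, which activates integrins beside talin, averaged 4500 ± 246 in sarin cells and 7020 ± 769 in control cells (-0.64 ± 0.14, adjusted p = 0.00886). NEDD9, a docking protein of the focal adhesion kinase pathway, was at -0.98 ± 0.18 (adjusted p = 0.00304) and CSRP1, a LIM protein that binds zyxin, at -0.51 ± 0.12 (0.0199). NEDD9 also passed in the difference between 24 and 3 h (-1.30 ± 0.25, adjusted p = 0.0197). Among membrane skeleton and cortical linkers 3 of 16 fell and 0 rose, with a median of -0.34. They were ADD3 and ADD1, adducins that cap filaments at the spectrin network, at -0.76 ± 0.14 and -0.51 ± 0.15, and ANXA2, annexin A2, at -0.86 ± 0.20.

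The remaining lists had medians of -0.04 and -0.20. For actin assembly and turnover the median was -0.04 over 34 genes, with 2 higher and 3 lower. NCKAP1, a subunit of the WAVE complex that drives branched networks, rose with a log2 change of 1.03 ± 0.28 (adjusted p = 0.0342), and CTTN, cortactin, rose by 0.45 ± 0.13 (0.041). ARPC5, a subunit of the Arp2/3 complex, was lower at -0.75 ± 0.15, as were CAP2 at -0.77 ± 0.20 and the severing protein gene GSN (gelsolin) at -0.70 ± 0.21. For SRF cofactors and YAP-TEAD genes the median was -0.20 over 11 genes with 0 higher and 2 lower, the SRF cofactor MRTFB at -0.64 ± 0.17 and the matricellular gene THBS1 at -1.05 ± 0.20. At 3 h, 0 genes were called in any of the 4 lists.

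After 48 h of sarin, 17 of the 30 genes passed by lead probe set, 11 lower and 6 higher, and by probe set 19 of 54 were lower and 13 higher. This is against a background in which 35.6% of all tested probe sets were called lower and 33% higher, so the counts are near what the arrays gave at large. Groups did not overlap for 20 lower and 15 higher member probe sets, where 34.6% and 34.2% of all did so. The sarin arrays of this time had an ACTB 3′ over 5′ ratio of 3.675 to 4.669, against 1.075 to 1.441 in controls, and a background level of 410.7 to 443.2 against 103.1 to 161.1. Probe sets called higher had control means of 207 to 1370 with a median of 406, and those called lower had control means of 584 to 14800 with a median of 3140. Level and direction thus went together among the members. The control mean also enters the direction, so part of this is built in, and it was not set against all probe sets. The part that RNA integrity and background had in the values of this time was not tested.

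**Figure D3:**
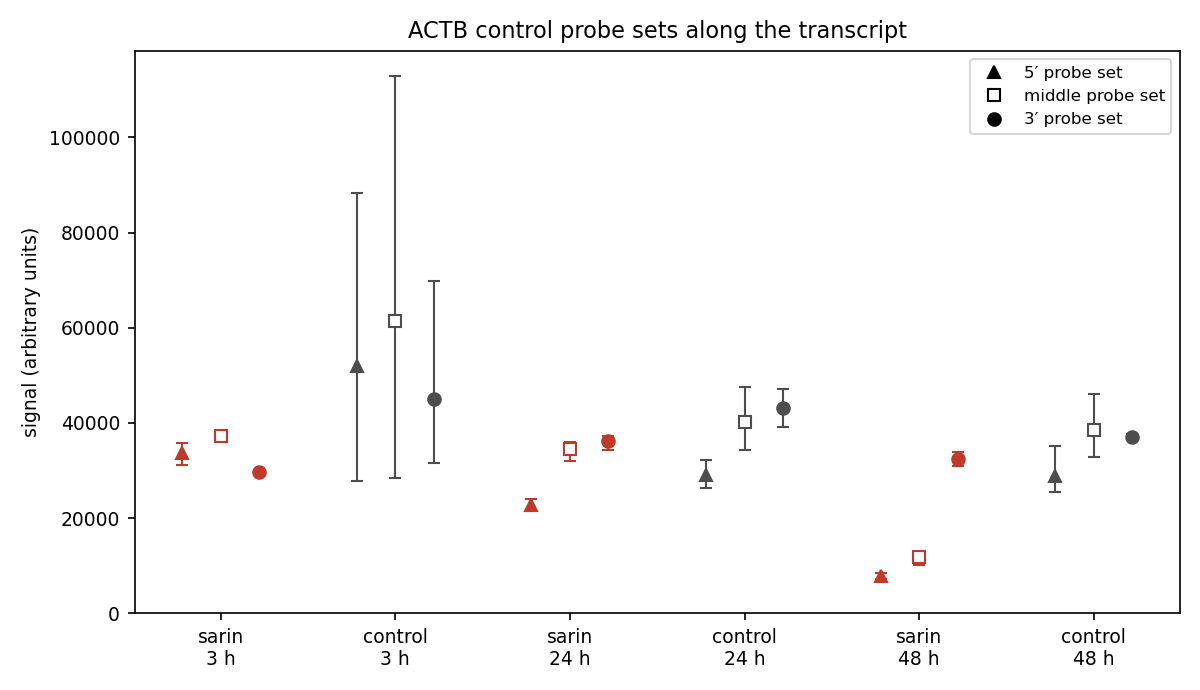
Signal (arbitrary units, vertical axis from 0) of the array's 3 ACTB control probe sets, at the 5′ end (triangles), middle (open squares) and 3′ end (circles) of the transcript, for sarin (red) and control (grey) cells at 3, 24 and 48 h. Symbols are means of 3 arrays and whiskers run from the lowest to the highest array. With 48 h of sarin the 5′ mean was 7790 and the 3′ mean 32400, against 28800 and 37100 in controls.

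Values for beta-actin differed with the position of the probe set along the transcript. Its 5′ control probe set averaged 7790 ± 600 in sarin cells and 28800 ± 5500 in control cells, and the middle one 11800 ± 1480 against 38500 ± 6790. The 3′ one averaged 32400 ± 1430 against 37100 ± 536, and the gene's lead probe set was at 0.16 ± 0.28. The 8 probe sets shared by ACTB and ACTG1 had a median of -0.88 at 48 h, and 7 of them were called. On the same arrays, actin thus read close to control by its lead and 3′ probe sets and far below it by the 5′ and middle ones.

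By lead probe set, ITGB1 had the smallest p among the genes lower at 48 h, with 2035.4, 2182.6 and 1923.7 in sarin cells against 7504.8, 10121.7 and 9940.2 in control cells (4.43-fold lower, adjusted p = 4.71e-10). CNN3 read 820.1, 976 and 1353.3 against 3134.5, 3640.4 and 3658.1, 3.34-fold lower. PFN1 read 4952.3, 4900 and 4341.9 against 16602.9, 13906.6 and 14006.9, 3.12-fold lower. In each the sarin arrays were far below the controls. MYL6 read 5633.2, 6113.6 and 5646.4 in sarin cells and 15435.1, 12317.3 and 13881.7 in control cells, 2.38-fold lower. TAGLN2 had 2550.4, 2878.1 and 4450.9 against 11525.6, 7939.3 and 8485.7, and it was the 1 lead probe set called lower at both 24 and 48 h. TPM4 read 711.4, 515.1 and 858.4 in sarin cells and 1610.6, 1777.1 and 1523.2 in control cells, 2.37-fold lower.

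The crosslinker ACTN1, which had not passed at 24 h, read 1687.7, 1500.7 and 1862.1 in sarin cells and 2847.2, 3402 and 3171.6 in control cells (-0.89 ± 0.15, adjusted p = 4e-05). Its other tested probe set was not called. CALD1 read 1322.2, 1531.5 and 1401.7 against 2662.9, 3482.4 and 3777.3 by its lead probe set (-1.20 ± 0.19, adjusted p = 1.8e-05). ITGAV (-1.08 ± 0.27), EZR (-1 ± 0.21) and FHL2 (-0.63 ± 0.26) were the other genes called lower. The EZR probe set called at 24 h was not called at 48 h. For ITGAV and FHL2, 1 of the 3 sarin arrays was not above background, at 404.9 for ITGAV and 246.5 for FHL2. FHL2 lost its call without sarin replicate 2 (adjusted p = 0.265) or control replicate 1 (0.0691), 2 (0.0544) or 3 (0.0911). One EZR probe set did not exceed background on any sarin array, with 88.8, 105.1 and 79.6 against 1073.9, 1130.7 and 1447.2 in control cells, and is at least 2.79-fold lower there (adjusted p = 1.12e-10). For this bound, the background level of each sarin array stands in for a signal below it.

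Higher at 48 h were LPP, PARVA, PXN, ITGB3, CNN2 and CCN1. LPP rose by all 3 of its tested probe sets. Its lead probe set read 2104.5, 2059.2 and 2065.4 in sarin cells and 836, 608.9 and 636 in control cells (2.98-fold, adjusted p = 2.39e-06), and another read 4150.5, 3072 and 5343.9 against 616.1, 257.4 and 345 (10.3-fold). PARVA read 1127.6, 1288.2 and 1516.2 against 370.9, 315.6 and 353.3, 3.64-fold higher, and its other tested probe set was also called, at 1.5 ± 0.33. ITGB3, which had been lower at 24 h by the same probe set, read 1304.6, 1191.9 and 1270.7 in sarin cells and 317, 485.7 and 511.7 in control cells. Its other tested probe set was not called at 48 h.

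CNN2 also took opposite signs at the later times, with 2153.9, 1954.7 and 1630 in sarin cells at 48 h against 1412.6, 1005.9 and 1168.5 in control cells (0.68 ± 0.17, adjusted p = 0.00209). CCN1 read 950.7, 899.7 and 883.5 against 611.7, 402.6 and 426.5 (0.93 ± 0.24), and PXN 1775, 1799.3 and 2697.1 against 1400.7, 1291.3 and 1429.8 (0.57 ± 0.20). The other tested probe set of CCN1 was not called. PXN lost its call without sarin replicate 3 (adjusted p = 0.107) or control replicate 2 (0.0535). With arrays centred on their median, the calls of PXN (adjusted p = 0.743), CNN2 (0.391) and CCN1 (0.13) were lost, and CCN1 lost it with quantile normalization too (0.0667). ZYX, the leading gene of 24 h, was at -0.12 ± 0.15 at 48 h with 1634.3, 1729.9 and 2005.9 against 2143.7, 1812.9 and 1869.4, which overlap, and VCL was at -0.38 ± 0.19 (adjusted p = 0.0855). Relative to the spike-ins, a scaling that moved the median of all probe sets to -2.08 at 48 h, 27 genes were lower and 0 higher, and the leads of LPP, PARVA, PXN, ITGB3, CNN2 and CCN1 all turned to values below 0.

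Probe sets of 1 gene went opposite ways at 48 h. Of the 6 tested probe sets of CALD1, 3 were called lower and 3 higher, from -2.37 ± 0.24 to 1.80 ± 0.47. The one at the high end lay just inside the filter, with a mean log2 signal of 8.16 against 8.106. That mean counts the 48 h sarin arrays, so their high values helped this probe set to be tested. The one at the low end had 171.8, 80.4 and 177.6 in sarin cells, not above background, against 759.9, 732.6 and 819.4 in control cells, and is at least 1.79-fold lower. The 3 smallest of these values lost their calls without some arrays, -0.53 (adjusted p up to 0.136), 0.95 (up to 0.079) and 1.02 (0.0745 without sarin replicate 2). With quantile normalization the values 1.02 and 0.95 became 0.65 and 0.45, with centred arrays 0.52 and 0.46, and neither was then called. MYL6 had one probe set at -1.25 and another at 1.75 ± 0.31. TPM1 was at 0.11 ± 0.20 by its lead probe set and at -2.30 ± 0.16 by another. Genes called in both directions were 2 of 14 members with several tested probe sets (14.3%), against 18% of 2383 such genes in all, and 0 members and 0.126% of all at 24 h. At 24 h the tested probe sets of 11 of the 14 members shared a sign (78.6%), against 1345 of the 2383 genes in all (56.4%). At both 3 and 48 h this share was 57.1% of the 14 members, against 49% of all such genes at 3 h and 57.9% at 48 h.

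**Figure D4:**
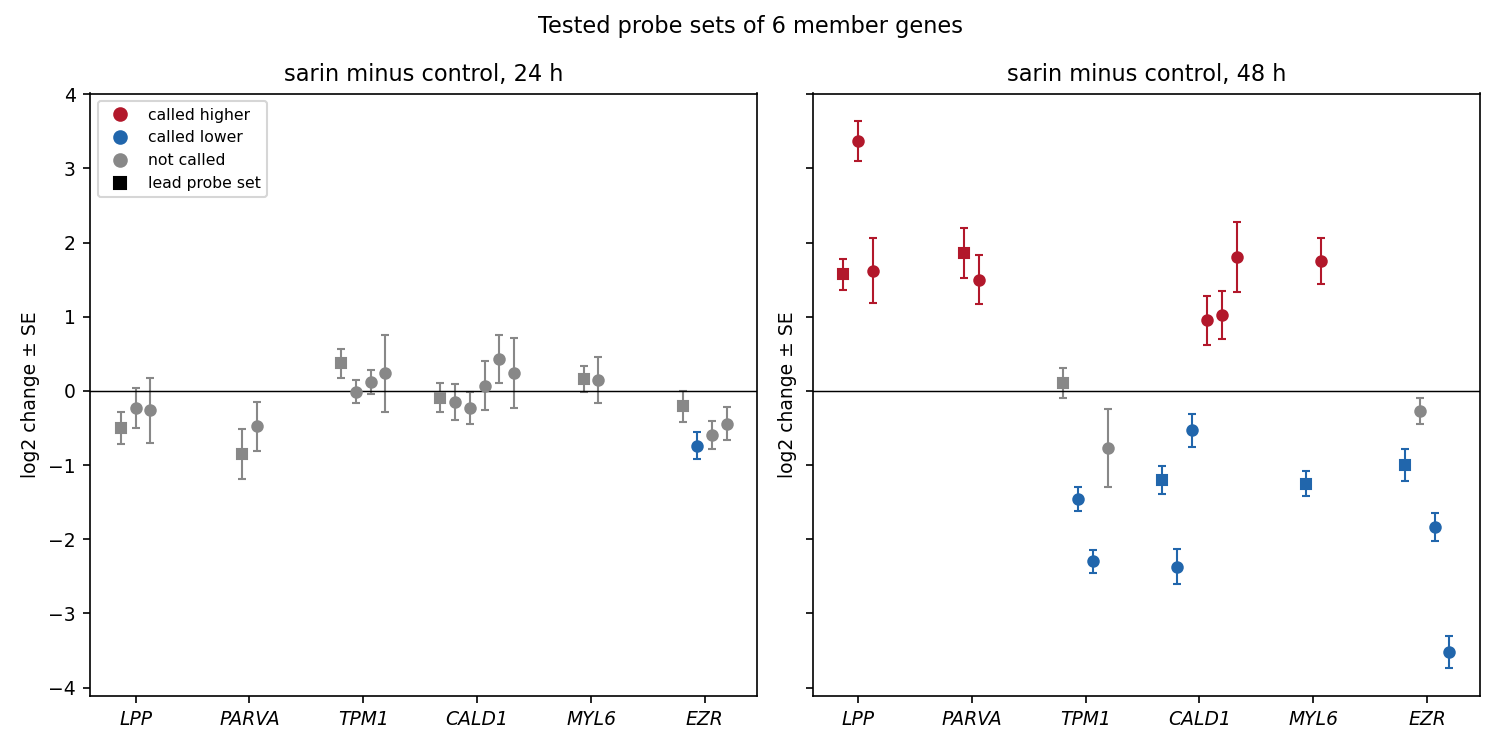
Log2 change of sarin minus control with its standard error (vertical axis) for each tested probe set of LPP, PARVA, TPM1, CALD1, MYL6 and EZR at 24 h (left) and 48 h (right). Squares are lead probe sets and circles the others, coloured by call. At 24 h the probe sets of a gene lie close together, while at 48 h those of CALD1 run from -2.37 to 1.80.

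The wider lists were also split at 48 h. Of focal adhesion and integrin partners 6 of 24 were higher and 12 lower, with FERMT2 at -2.53 ± 0.14 and ITGA2 at 1.56 ± 0.26. Of actin assembly genes 8 of 34 were higher and 18 lower, with DSTN, a filament-severing relative of cofilin, at -2.05 ± 0.14 and the formin DIAPH1 at 2.11 ± 0.19. Of SRF cofactors and YAP-TEAD genes 8 of 11 were higher and 2 lower, with MRTFA at 1.34 ± 0.24 and MRTFB at -0.84 ± 0.17. Of membrane skeleton genes 4 of 16 were higher and 8 lower, with MARCKS, a membrane-bound actin crosslinker, at -2.55 ± 0.18. Over all 8054 genes 2824 were higher and 2783 lower, against which the SRF and YAP-TEAD list had more higher than lower and the other 3 lists more lower than higher. Only 11 of the 24 genes of the SRF and YAP-TEAD list lay above the level filter. The filter's mean counts the 48 h sarin arrays, so high values there may have helped genes to be tested, and this was not examined. Of the substrate-adherent markers 3 of 11 were higher and 5 lower, with a median of -0.16, and their summed signal was 23508 to 25668 with sarin against 61589 to 82586 in controls. Of the noradrenergic markers 0 of 10 were higher and 5 lower, and their sum was 47923 to 56934 against 82019 to 83635. The glial sum was 2940 to 3618 against 791 to 1131, but GFAP, S100B, SOX10 and AQP4 each averaged less than the background of the sarin arrays. Only MBP was tested (1.27). AIF1, which lay below the filter, reached 1739.9 on a sarin array of 48 h. The part of these markers in the member genes' values was not tested.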

How the data were processed

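RNA of untreated and sarin-exposed SH-SY5Y cells was measured on 18 Affymetrix arrays, each with 22283 probe sets. Per the submitters' processing notes the authors used MAS5. Neither its version nor its scaling target is given in the sources used here. The values the authors deposited are a linear-scale intensity. Groups were taken from the sample titles. Probe sets were named through GEO's platform annotation: 19065 have 1 gene symbol, 1043 several and 2107 none, and 68 are controls. Only the first kind was used.

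Using limma 3.58.1 under R 4.3.3, the means of 6 groups were fitted to log2(signal + 16) of all 18 arrays (lmFit, then trended eBayes; residual df 12, prior df 7.113), on the upper 60% of probe sets by mean level (a signal of 259.5), without a replicate block. Tests were two-sided with Benjamini-Hochberg adjustment over 11439 probe sets, and a call is an adjusted p under 0.05. The fit was tested on simulated data. A gene's lead probe set is its brightest, and the ± of log2 values is the standard error. The number of arrays limits the precision. The genes and lists were chosen with earlier results of these data known, and 1 list is not reported here. All 39 genes are named, and of each list up to 3 called genes per direction with the smallest p. At 48 h, values per array are given for at most 8 genes in each direction. Further probe sets given with values per array were chosen after their values were seen. Replicate numbers were not taken to pair arrays: within a time, deviations of same-numbered sarin and control arrays correlated at -0.174 to 0.018. Such correlations do not show that the arrays were unpaired, and pairing across times was not examined.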

Additional observations from a re-analysis of the deposited data

Results flagged for a closer look

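The effect of sarin differed between 24 and 3 h by a test of the difference itself for 4 probe sets. The value at 24 h minus that at 3 h was -1.59 for the lead and -1.61 for the second probe set of ZYX, the zyxin gene. It was -1.07 for a probe set of TAGLN2, the transgelin-2 gene, and -1.14 for one of EZR, the ezrin gene (log2, limma). For ZYX, sarin cells were above controls by 0.30 and 0.54 at 3 h, neither past the threshold, and below them by the calls of 24 h. Both ZYX probe sets passed without any 1 of the 12 arrays, while TAGLN2 and EZR each passed in 2 of those 12 fits (adjusted p up to 0.0967 for TAGLN2 and 0.154 for EZR).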

How the results depend on the processing

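Counts of member genes called are by lead probe set. The count for sarin against control stayed at 0 at 3 h in all fits but one, and at 48 h lay between 15 and 21 in all but the spike-in scaling. At 24 h, where it was 5, leaving out 1 array gave 1 to 4, namely 3 and 2 without sarin replicates 1 and 2 and 3 and 1 without control replicates 1 and 2. With only the arrays of 24 h it was 8. Over all probe sets it was 819 at 24 h, 425 with quantile normalization, 1450 with arrays centred on their median (1289 higher and 161 lower, against 391 and 428; the median of all probe sets moved from -0.09 to 0.17), 27 with spike-in scaling, 2063 with only the arrays of 24 h, 1379 without the 48 h sarin arrays, 1280 against the other controls and 229 to 549 with 1 array left out. Against the controls of the other times the counts were 7 at 3 h (5 higher and 2 lower) and 10 at 24 h (1 higher and 9 lower). Over all probe sets 1618 were then called at 3 h, 577 higher and 1041 lower. CNN3 turned to -0.44 at 24 h in that comparison.

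Scaling to the spike-ins, chosen after seeing the data, gave 0 at 24 h, 27 at 48 h, 0 for the difference between 24 and 3 h, and 17 for controls at 24 h minus 3 h. Over all probe sets it called 27, 9422, 1 and 3476 in that order. The member probe sets called at 24 h in the main fit moved by little, ZYX to -1.25 and -1.03 at 24 h and to -1.57 and -1.59 in the difference between times. The spike-ins' mean log2 signal ran from 10.89 to 11.97 within the 24 h controls alone. At 48 h that scaling moved the median of all probe sets to -2.08, and turned CFL1 to -1.67, ACTB to -1.90, PXN to -1.49, ILK to -1.75, ITGA5 to -1.83, CNN2 to -1.38, VASP to -1.67, SRF to -1.57, TLN1 to -1.76, ITGB3 to -0.54, CCN1 to -1.13, TPM1 (lead) to -1.95, MYL6 (second probe set) to -0.31, a pair of LPP probe sets to -0.44 and -0.48, a pair of PARVA to -0.56 and -0.19, and 3 of CALD1 to -1.04, -1.10 and -0.26.

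For controls at 24 h minus 3 h the count of 2 became 0 with quantile normalization, 8 with centring, 0 with only those arrays, 4 without the 48 h sarin arrays and 0 to 1 with 1 array left out. Over all probe sets the count of 602 became 246, 1475 (1322 lower), 59, 1039 and 247 to 747 in that order. For controls at 48 h minus 24 h the member count became 1 without the 48 h sarin arrays, where 73 of all probe sets were called. The difference between 24 and 3 h gave 2 with centring (1 higher and 1 lower) and 1 to 2 with 1 array left out, 2 without control replicate 2 of 3 h. The cause of these changes was not tested. With replicate number as a block the counts were the same as without it (0, 5 and 17 at 3, 24 and 48 h, and 1 for the difference), and 1 EZR probe set lost its call in the difference (adjusted p = 0.07), as did 1 CALD1 probe set at 48 h (0.0525). With 3 arrays a group, faint genes near the background level are the least certain.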

Other observations

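The faint members below the level filter had values at 48 h that moved with the background of the sarin arrays. TPM2 averaged 183 in sarin cells and 38.1 in control cells, MYL9 42.9 against 15.7, MSN 130 against 25.5 and CCN2 92.3 against 17.3. Background ran from 410.7 to 443.2 with sarin and from 103.1 to 161.1 without, above all of these means, so none is a measured level.

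LPP and its relative ZYX, both LIM proteins of the adhesion, did not move together. In sarin cells minus control cells the lead probe sets stood at -0.92 for LPP and 0.30 for ZYX at 3 h, -0.50 and -1.29 at 24 h, and 1.57 and -0.12 at 48 h. These values were set side by side after seeing them, and the difference between the genes was not tested.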
